A study of Mus musculus with 2 samples.

Results

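The *Sprr* genes encode small proline-rich proteins and the *Lce* genes encode late cornified envelope proteins. Both families lie in the epidermal differentiation complex of mouse chromosome 3. Their products are cross-linked by transglutaminases into the cornified envelope, the protein shell that replaces the plasma membrane of dying keratinocytes in the outer skin. *Sprr* genes are switched on in differentiating and stressed squamous epithelia, *Lce1* genes late in the normal epidermis, and *Lce3* genes after barrier injury. Myoblasts do not cornify, and no expression was measured here, so the values below describe only where a DNA-binding protein was found near these genes. The members were chosen by symbol, as every gene of chromosome 3 whose symbol starts with Sprr or Lce and a digit, which gave 38 genes (17 *Sprr*, 21 *Lce*) of 49997 positioned genes. Of these, 35 are protein-coding and 3 are pseudogenes of the *Sprr2* family. Their peaks were selected by position, with the summit inside a member or within 5 kb of either end, which gave 13 of 51356 peaks. The number of peaks at these genes is therefore a description and was not tested.

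The data came from chromatin immunoprecipitation and sequencing (ChIP-seq) in C2C12, an established mouse myoblast line. One clone carried a doxycycline-inducible, codon-altered chimera named MMH, which has the homeodomains of mouse Dux at its N-terminus and the C-terminus of human DUX4, so the binding domain is that of Dux and the antibody epitopes are those of DUX4. Dux and DUX4 are transcription factors of the early embryo. Both groups were cells of this clone treated with doxycycline at 2 ug/ml for 18 h: 1 library was precipitated with a mixture of antisera to DUX4 (MO488, MO489), and 1 control library carries the label anti-HA, although the series' design names GFP antibody for the control. After duplicate removal the peak caller used 26253175 antisera and 23412256 control fragments. With 1 library per group there was no replicate check, and Poisson and binomial intervals (95%) cover counting error only.

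A peak lay within 5 kb of 13 of the 38 genes (34.2%, exact binomial interval 19.6 to 51.4%). The same rule gave a peak at 43.2% of all 21900 protein-coding genes. Long genes collect more peaks under this rule, and the members are short, with a median annotated length of 1620.5 bp (range 231 to 16840 bp). Among protein-coding genes of 1 to 3 kb, 17.5% had a peak, against 9 of the 29 protein-coding members in that length range (31.0%, interval 15.3 to 50.8%). That interval contains the 17.5%, and the interval over all members contains the 43.2% of all coding genes. Of the other 54 genes of the 92 to 94 Mb region, 38.9% had a peak. Members are neighbours within tandem arrays and are not independent of each other.

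Members with a peak were also counted by family. In the *Sprr2* family 7 of 13 did (*Sprr2a1*, *Sprr2a3*, *Sprr2e*, *Sprr2g*, *Sprr2i*, *Sprr2j-ps* and *Sprr2k*). *Sprr1b* had one, shared with *Sprr2k*, while *Sprr1a*, *Sprr3* and *Sprr4* had none. Among the *Lce3* genes, *Lce3b*, *Lce3c* and *Lce3d* had a peak and *Lce3a*, *Lce3e* and *Lce3f* did not. The *Lce1* family was the sparsest of the larger families, with 2 of 14 (*Lce1j* and *Lce1m*; interval 1.78 to 42.8%). *Lce6a*, the longest member, had none. The *Lce1* genes are 1255 to 2188 bp long, and their share of 14.3% was near the 17.5% of all protein-coding genes of 1 to 3 kb. The exact intervals of the *Sprr2* (25.1 to 80.8%) and *Lce3* (11.8 to 88.2%) shares contain the 43.2% of all protein-coding genes. That of *Lce3* also contains the 17.5%, and that of *Sprr2* lies above it. The intervals of the 3 families overlap, and the difference between families was not tested.

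**Figure D1:**
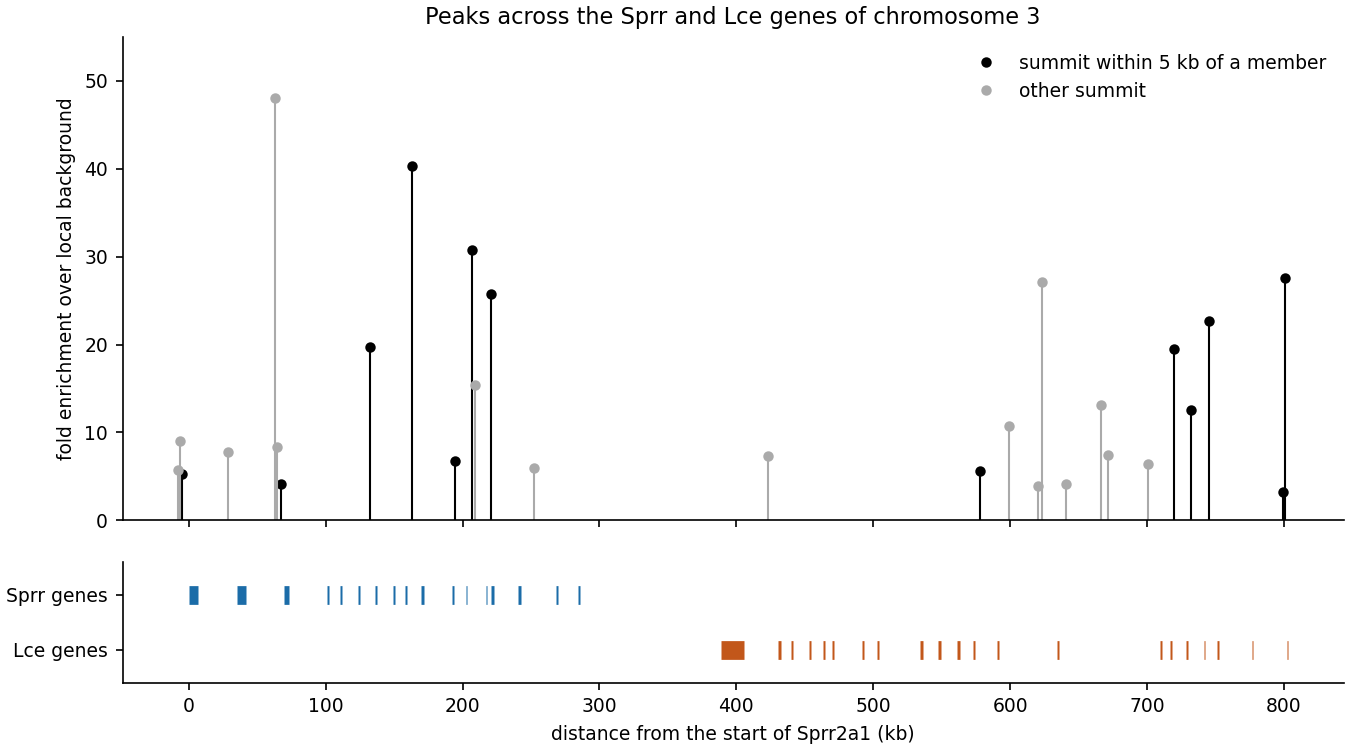
Fold enrichment over local background at each summit (vertical axis) against distance from the start of *Sprr2a1* in kb (horizontal axis), with black marks for summits within 5 kb of a member and grey marks for other summits, and the *Sprr* and *Lce* genes drawn below. Tall black marks stand over the *Sprr2* genes, up to 40.3-fold, and at the *Lce3* end, while the first *Lce1* genes lie in a stretch of 155 kb without a summit.

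No summit fell inside any member. The 38 gene bodies cover 83.3 kb together, where the mean density of chromosome 3 would give 1.83 peaks. Taking 3 counts as the limit that a count of 0 allows, up to 36.0 peaks per Mb of gene body are possible (44.3 by the 2-sided exact Poisson interval), above the 22.0 per Mb of the chromosome, so a lower density in the gene bodies was not detectable over this length. For comparison, 32.3% of all protein-coding genes and 2.30% of those of 1 to 3 kb had a summit inside. The 13 summits lay 246 to 4838 bp from the nearest member, at a median of 2249 bp. Of the 38 members, 1 had a summit within 1 kb and 4 within 2 kb. The share of all genes at these distances was not counted, so these counts are not read as a trait of the members.

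The tallest of the 13 peaks lay in the *Sprr2* array beside the pseudogene *Sprr2g* (92378662 to 92379285 on chromosome 3 of mm10). Its summit, 3743 bp from the gene, had a pileup of 201 fragments over a background of 4.01. That is a 40.3-fold enrichment (Poisson interval of the pileup with the background held fixed, 34.9 to 46.2), with −log10 p of 259. The same summit lay 6713 bp upstream of the protein-coding *Sprr2h*, outside the 5 kb limit. *Sprr2j-ps*, a second pseudogene, had the next tallest fold. Its peak at 92422211 to 92422791, 3136 bp from the gene, had 153 fragments and a 30.7-fold enrichment (26.1 to 36.0), with −log10 p of 180. By fold, the 2 highest of the 13 peaks were thus nearest to annotated pseudogenes, while by pileup and by −log10 p the *Lce1m* peak came second.

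The peak closest to any member lay just beyond the 3′ end of *Sprr1b*, which encodes a small proline-rich protein induced in squamous differentiation. It spans 92436308 to 92436866, so its edge reaches into the annotated gene, whose 3′ end on the minus strand is at 92436808. The summit lay 246 bp downstream of *Sprr1b* and 2635 bp downstream of *Sprr2k*, which is transcribed toward it from the other side. It had 155 fragments over a background of 5.05, a 25.8-fold enrichment (21.9 to 30.2), with −log10 p of 168. This was the only peak of the 13 with more than 1 member within 5 kb.

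At *Sprr2e* the peak at 92347413 to 92348184 was the widest of the 13, at 772 bp. It lay 4211 bp upstream, with 98 fragments, a 19.7-fold enrichment (16.1 to 24.0) and −log10 p of 97.9. It stood between *Sprr2d* and *Sprr2e*, 7059 bp downstream of the former. The *Sprr2i* peak (92410222 to 92410593, 1118 bp downstream) was far lower, with 33 fragments, a 6.78-fold enrichment (4.73 to 9.44) and −log10 p of 19.6. Its interval includes the median of all deposited peaks, 8.02-fold.

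The *Lce3* genes showed a repeated arrangement. *Lce3b*, *Lce3c* and *Lce3d* are neighbours on the plus strand, and each had a peak downstream of its 3′ end, at 1542, 2216 and 2249 bp. Behind *Lce3d* (92960578 to 92961121) the pileup was 124 fragments over a background of 4.51, a 22.7-fold enrichment (18.9 to 27.0) with −log10 p of 129. Behind *Lce3b* (92935413 to 92936089) it was 97 fragments, a 19.5-fold enrichment (15.9 to 23.8) with −log10 p of 96.6. Behind *Lce3c* (92947735 to 92948211) it was 68 fragments over a background of 4.49, a 12.6-fold enrichment (9.81 to 15.9) with −log10 p of 55.2. The interval at *Lce3c* touches that at *Lce3b* and lies below that at *Lce3d*. The same position behind *Lce3e* and *Lce3f* held no deposited peak, and the nearest summits to those genes lay 6238 and 21731 bp away.

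At the far end of the array *Lce1m* had 2 peaks, and it was the only member with more than 1. The stronger, at 93016330 to 93016881, lay 1187 bp downstream of *Lce1m* and had 181 fragments over a background of 5.61. Its enrichment was 27.5-fold (23.7 to 31.8), with −log10 p of 200, the second largest −log10 p of the 13. The weaker had 15 fragments and a 3.19-fold enrichment (1.87 to 5.13), the lowest of the 13, and its summit lay inside the neighbouring gene *Crct1*. The stronger summit lay between the 2 genes, 934 bp from *Crct1*, so *Crct1* was the nearer gene for both peaks. They count at *Lce1m* only because it is the nearest member and lies within 5 kb. *Lce1j* had 27 fragments and a 5.59-fold enrichment (3.75 to 8.04) 3648 bp upstream, with −log10 p of 14.3.

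**Figure D2:**
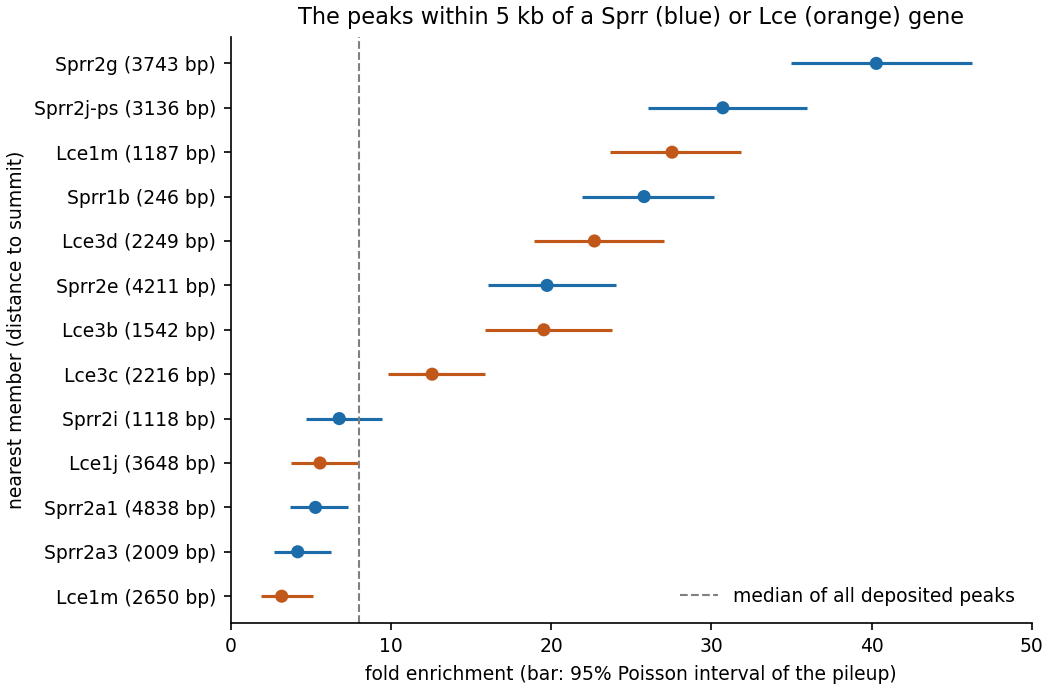
Fold enrichment of the 13 peaks within 5 kb of a member (points) with the 95% Poisson interval of the pileup (bars), named by nearest member and its distance to the summit, with *Sprr* in blue and *Lce* in orange. The 8 upper peaks, from 12.6-fold at *Lce3c* to 40.3-fold at *Sprr2g*, lie above the dashed median of all deposited peaks with their whole interval, and the 5 lower peaks run from 3.19-fold to 6.78-fold.

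The 13 peaks fell into a tall and a low set, with no fold between 6.78 and 12.6. Their median was 19.5-fold (order-statistic interval 5.30 to 27.5), against 8.32-fold in the rest of the 92 to 94 Mb region (7.18 to 10.6), 8.18-fold on chromosome 3 and 8.02-fold over all deposited peaks. Enrichment reached 20-fold in 5 of the 13 (38.5%), in 19.7% of peaks in the rest of the region and in 13.7% of all deposited peaks. Among the strongest 10% of the list by −log10 p were 4 of the 13. The interval of the median at the members contains that of the rest of the region, and the median depended on the distance used. With a limit of 10 kb, 24 peaks entered and their median was 8.68-fold. The gap between the tall and the low set was then filled, by peaks from 7.38-fold near *Lce1a1* to 10.8-fold near *Lce1k*. The control-derived background was above its genome-wide floor of 4.01 fragments in 6 of the 13 (46.2%), close to the share in the rest of the region (46.1%) and more than in all deposited peaks (22.0%), but it reached only 5.61 fragments.

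The threshold of 5 kb left out the strongest peak of the whole array. It lay 6326 bp upstream of *Sprr2a3* (92278713 to 92279321) with 240 fragments and a 48.1-fold enrichment (42.2 to 54.5). Just inside the limit was the peak 4838 bp upstream of *Sprr2a1*, with 34 fragments over a background of 5.61 and a 5.30-fold enrichment. Just outside were one 5039 bp upstream of *Lce1l*, with 24 fragments and a 4.13-fold enrichment, and one 5162 bp upstream of *Sprr2a3*, with 41 fragments and an 8.38-fold enrichment. *Sprr2a3* itself counted through a weak peak 2009 bp upstream, with 22 fragments over a background of 4.49 and a 4.19-fold enrichment. In all, 11 further summits lay between 5 and 10 kb from a member, nearly as many as within 5 kb. Within 7 kb, 17 members had a peak.

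One peak of each *Sprr2a* copy lay at nearly the same place. *Sprr2a1*, *Sprr2a2* and *Sprr2a3* are tandem copies on the plus strand, and each had a summit upstream of its 5′ end, at 6293, 6437 and 6326 bp. The pileups there were 44 fragments at *Sprr2a1*, 38 at *Sprr2a2* and 240 at *Sprr2a3*. Fold enrichment was 8.98 (6.58 to 12.0), 7.78 (5.56 to 10.6) and 48.1 (42.2 to 54.5). The first 2 did not differ beyond their counting intervals, and the *Sprr2a3* pileup was 5.45 times that of *Sprr2a1*. Other summits upstream did not line up: *Sprr2a1* had them at 7876 and 4838 bp and *Sprr2a3* at 5162 and 2009 bp. *Sprr2a2* had no other summit within 10 kb. The sequence at the summits was not examined. The promoter sequences of the copies are near-identical: those of *Sprr2a1* and *Sprr2a2* are equal over all 300 bases, and *Sprr2a3* shares a run of 272 bases with them, shifted by 28 bases through its annotated start. No source used here says how reads that map to several copies were assigned, and the division of signal among the *Sprr2a* copies is uncertain. The 250 bases before the start of *Sprr2a1*, chr3:92215585-92215834, plus strand, from RefSeq on GRCm38.p6, are shown because *Sprr2a2* has the same letters.
*Sprr2a1*: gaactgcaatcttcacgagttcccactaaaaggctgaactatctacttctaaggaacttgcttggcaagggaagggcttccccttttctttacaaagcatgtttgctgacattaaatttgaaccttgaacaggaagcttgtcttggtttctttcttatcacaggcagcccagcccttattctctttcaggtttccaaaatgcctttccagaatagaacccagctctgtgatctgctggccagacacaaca

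**Figure D3:**
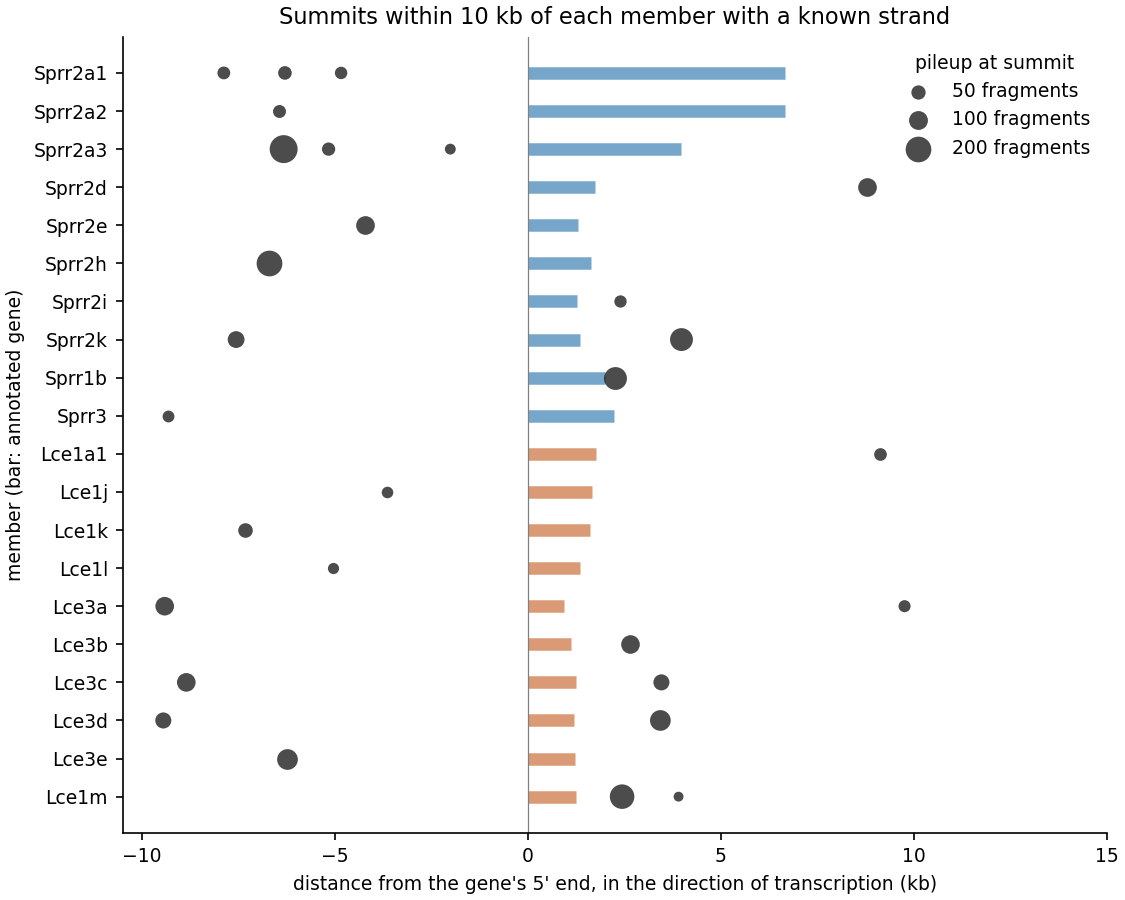
Distance of each summit from the 5′ end of the gene, in the direction of transcription (kb), for members with a known strand and a summit within 10 kb, with bars for the annotated gene and dots whose area grows with the pileup. Dots line up at 6293 to 6437 bp upstream of the 3 *Sprr2a* copies and behind *Lce3b*, *Lce3c* and *Lce3d*, and no dot has its centre on a bar.

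Strand was known from the promoter table for 34 of the 38 members. Of the 13 peaks, 7 lay downstream of their nearest member and 4 upstream, and for 2, those at *Sprr2g* and *Sprr2j-ps*, no strand was given. The downstream peaks included 5 of the 8 above 10-fold, at *Sprr1b*, *Lce3b*, *Lce3c*, *Lce3d* and *Lce1m*. Among members of known strand only *Sprr2e* had an upstream peak above 10-fold within 5 kb.

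No peak touched a member's promoter. None of the 34 promoters, each 250 bases before to 50 after the annotated start, overlapped a deposited peak, and a count of 0 of 34 allows a share of up to 8.82% by the same limit of 3 counts (10.3% by the exact binomial interval). Of all 32851 promoters, 2.17% overlapped one, a share below both limits. The promoters were searched on both strands for the letters TGATT (a homeodomain core, read AATCA on the other strand), for TGATT followed after 1 base by its reverse complement (here called the Dux type), and for TAAT followed after 2 bases by AATCA (the DUX4 type). The first lies within the second, and its complement within the third. A match is a description of letters, not a binding site.

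Over all promoters, the search letters were more common where a summit lay inside. TGATT stood in 302 of 379 promoters with a summit inside (79.7%, interval 75.3 to 83.6%) and in 36.5% of promoters without one. The Dux type was rare, at 11 promoters, of which 7 had a summit inside. Stretches around the match are shown from 3 of these, with the match in capitals, to show the letters that the member promoters lack. They lie at chr10:60277476-60277504, chr11:44586157-44586185 and chr19:44672228-44672256, all on the plus strand, and their summits lay 1, 6 and 3 bp from the centre of the stretch, with 24.7, 43.1 and 28.3-fold enrichment. Over all 7 the distance ran from 1 to 38 bp and the enrichment from 4.39-fold at *Olfr1121* to 43.1-fold, so the 3 shown are among the stronger.
*Psap*: gcctgacctTGATTTAATCAccagatatg
*4930597A21Rik*: tggtaagccTGATTAAATCAaaggtcttc
*Gm41854*: ggattgtatTGATTTAATCAtctgcagaa

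In the member promoters the Dux type and the DUX4 type were found in 0 of 34, against 0.0335% and 0.350% of all promoters, so 34 are too few to show a difference. TGATT was found in 12 of 34 (35.3%, interval 19.7 to 53.5%), near the 37.0% of all promoters. *Lce1g* had the most, with 4, and its nearest summit lay 41824 bp from the gene. The promoters of *Lce3b*, *Lce3c* and *Lce3d*, whose genes have peaks downstream, had none. No genome sequence was used here, so the letters under the peaks themselves were not examined. The 250 bases before the start are printed for *Sprr1b* (chr3:92438780-92439029, minus strand) and *Sprr2e* (chr3:92351893-92352142, plus strand) as genes with a strong peak nearby, for *Lce1g* (chr3:92752339-92752588, minus strand) as the gene richest in the core but far from a peak, and for *Lce3c* (chr3:92944236-92944485) and *Lce3d* (chr3:92957140-92957389), both on the plus strand. Each runs 5′ to 3′ along the gene, from RefSeq on GRCm38.p6, with TGATT or AATCA in capitals.
*Sprr1b*: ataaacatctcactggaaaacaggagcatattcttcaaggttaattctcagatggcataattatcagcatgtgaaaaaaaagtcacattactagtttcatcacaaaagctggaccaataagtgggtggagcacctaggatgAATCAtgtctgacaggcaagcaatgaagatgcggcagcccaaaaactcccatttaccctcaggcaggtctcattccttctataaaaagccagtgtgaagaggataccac
*Sprr2e*: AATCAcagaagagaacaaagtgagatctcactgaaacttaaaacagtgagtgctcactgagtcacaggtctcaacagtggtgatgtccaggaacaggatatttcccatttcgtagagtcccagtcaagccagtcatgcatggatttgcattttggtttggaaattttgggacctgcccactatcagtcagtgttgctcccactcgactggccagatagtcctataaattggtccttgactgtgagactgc
*Lce1g*: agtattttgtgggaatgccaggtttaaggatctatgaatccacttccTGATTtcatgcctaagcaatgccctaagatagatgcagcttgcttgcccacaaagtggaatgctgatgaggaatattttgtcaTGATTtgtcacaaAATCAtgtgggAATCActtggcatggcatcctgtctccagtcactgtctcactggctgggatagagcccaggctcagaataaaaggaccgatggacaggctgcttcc
*Lce3c*: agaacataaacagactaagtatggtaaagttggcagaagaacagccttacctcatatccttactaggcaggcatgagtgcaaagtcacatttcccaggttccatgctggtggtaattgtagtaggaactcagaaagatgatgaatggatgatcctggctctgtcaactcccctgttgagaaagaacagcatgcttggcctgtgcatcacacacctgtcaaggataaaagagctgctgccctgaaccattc
*Lce3d*: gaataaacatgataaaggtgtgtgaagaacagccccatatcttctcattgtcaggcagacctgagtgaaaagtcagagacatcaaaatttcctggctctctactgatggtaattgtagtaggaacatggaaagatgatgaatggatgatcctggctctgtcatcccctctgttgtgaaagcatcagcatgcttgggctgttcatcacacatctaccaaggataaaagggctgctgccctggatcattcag

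In global alignment of the promoters the median identity was 60.7% over pairs within *Sprr2* (range 45.3 to 100%), 63.6% within *Lce1* (47.6 to 86.0%) and 57.5% within *Lce3* (52.6 to 83.1%), against 47.6% over the 280 pairs of a *Sprr* with an *Lce* promoter. It reached 88.7% between *Sprr2d* and *Sprr2e* and 86.0% between *Lce1g* and *Lce1i*. Pairs of a *Sprr2a* copy with another *Sprr2* gene had 45.3 to 50.6%, within the range of the *Sprr* with *Lce* pairs (41.2 to 52.5%). The *Sprr2a* copies are annotated as longer genes, of 3961 to 6658 bp against a *Sprr2* median of 1346 bp. Whether their promoter windows are counterparts of the others was not tested. The copy most like *Lce3d* was *Lce3e*, at 83.1%, although *Lce3d* had a peak within 5 kb and *Lce3e* did not. TATAAA, the core of the TATA box, stood in 10 of 14 *Sprr* promoters (interval 41.9 to 91.6%) and in 13.6% of all promoters on either strand. ATAAAAG stood in 15 of 20 *Lce* promoters (interval 50.9 to 91.3%) and in 5.42% of all. TATAAA stood in 4 of 20 *Lce* promoters and ATAAAAG in 1 of 14 *Sprr* promoters. The 2 words can overlap, were picked after the sequences were seen, and were both searched on both strands. The intervals treat related promoter copies as independent, which they are not.

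Many members lay far from any peak. Of the 25 members without one, the nearest to a summit were *Lce1l* (5039 bp), *Lce3e* (6238 bp), *Sprr2a2* (6437 bp), *Sprr2h* (6713 bp) and *Sprr2d* (7059 bp). The farthest were *Lce1f* (73812 bp), *Lce1e* (68220 bp), *Lce1d* (46319 bp), *Lce1g* (41824 bp) and *Lce1c* (40067 bp). Between the summits at 92639180 and 92794162 no peak was called for 155 kb, and this stretch holds 11 *Lce1* genes, from *Lce1a1* to *Lce1j*. The stretch before it, 171 kb from 92468045, holds *Sprr1a*, *Sprr4* and *Lce6a*. Of the 3514 intervals between neighbouring summits on chromosome 3, 4.38% were as long as the former and 3.67% as long as the latter, and their median was 25.3 kb. Whether reads could be mapped evenly over this stretch was not tested.

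Peak density at the members was compared with the area around them. The merged windows of the members and 5 kb on each side cover 436.6 kb and held 29.8 peaks per Mb (Poisson interval 15.9 to 50.9). The rest of 92 to 94 Mb held 76 peaks, or 48.6 per Mb (38.3 to 60.8), and chromosome 3 as a whole 22.0 per Mb. The rest was denser at its distal end. From *Tdpoz2* to 94 Mb, where most *Tdpoz* genes of the region lie, there were 37 peaks in 348 kb, or 106 per Mb (74.8 to 146), with pileups of up to 1922 fragments. The *Tdpoz* genes of the region with 5 kb on each side held only 7 peaks, with pileups of up to 140 fragments. Most peaks of the distal part, the tallest included, thus lay more than 5 kb from a *Tdpoz* gene. Without the part from *Tdpoz2* to 94 Mb the rest held 32.1 per Mb (22.8 to 43.9). The *Sprr* windows had 36.1 per Mb (14.5 to 74.3) and the *Lce* windows 24.7 per Mb (9.08 to 53.9). Each of these intervals overlaps that of the rest without its distal part. At the mean density of chromosome 3 the windows would hold 9.60 peaks, against the 13 found.

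**Figure D4:**
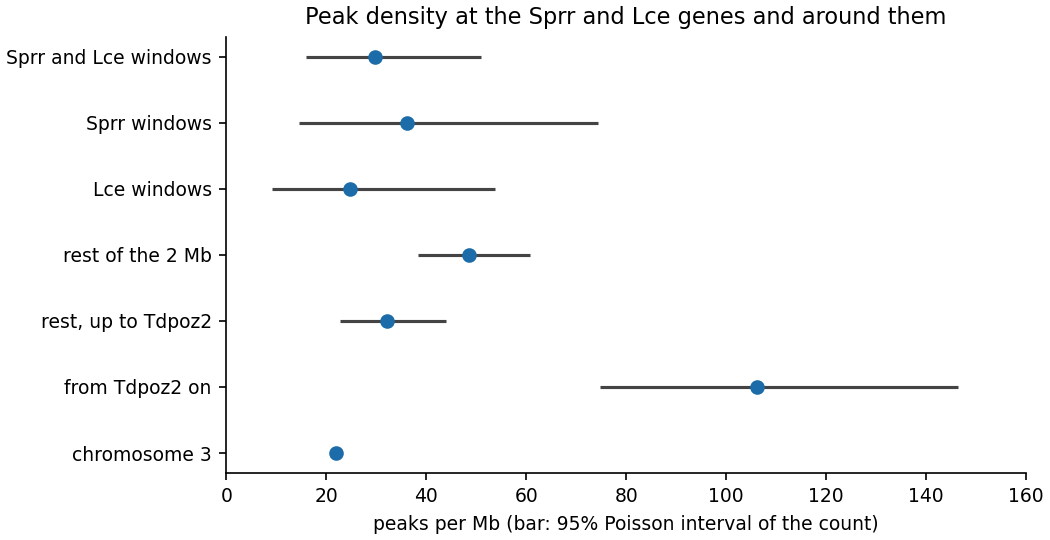
Peaks per Mb (points) with the 95% Poisson interval of the count (bars) in the merged windows of the members, in the *Sprr* and *Lce* windows apart, in the rest of the 2 Mb, in its parts up to and from *Tdpoz2*, and on chromosome 3. The member windows (29.8 per Mb) and the rest up to *Tdpoz2* (32.1) lie close together, and the part from *Tdpoz2* on (106) lies above both.

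Other genes of the epidermal differentiation complex, S100 genes of chromosome 3 and genes of cornification elsewhere were counted in the same way, from lists holding 58 genes. Of these, 18 had a peak within 5 kb (31.0%). The same rule gave 43.2% over all protein-coding genes and 17.5% over those of 1 to 3 kb. Of the 7 fused S100 genes of the complex, which encode filaggrin-type matrix proteins, 2 had one. These were *Tchh*, trichohyalin of the hair root sheath, with 30.1-fold enrichment and 150 fragments at a summit inside the gene, and *Tchhl1*, with 2 peaks. The stronger peak of *Tchhl1* had 34.9-fold enrichment and 174 fragments 439 bp outside the gene. The weaker had its summit inside the gene, with 10.6-fold enrichment. *Flg* and *Flg2*, the filaggrins, had none, and the nearest summits lay 17681 and 18681 bp away. Of 6 other genes of the complex, which include envelope precursors, *Crct1* shared the *Lce1m* peaks and *Lelp1* had a 3.33-fold peak. *Ivl* (involucrin) and *Lor* (loricrin), 2 major envelope proteins, had none, with the nearest summits 65390 and 8699 bp away. Neither *Pglyrp3* nor *Pglyrp4* had one.

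Among 15 S100 genes of chromosome 3, small calcium-binding proteins, 7 had a peak, from 6.38-fold at *S100a13* and *S100a14*, which share it, to 12.9-fold at *S100a3*. The others were *S100a1* (9.18), *S100a7a* (9.37), *S100a11* (7.98) and *S100a10* (12.6). Of 12 envelope enzymes and plaque proteins elsewhere in the genome, *Aloxe3*, a lipoxygenase of the skin barrier, had 20.7-fold enrichment inside the gene, and the transglutaminase genes *Tgm3* and *Tgm5* had 3.79 and 4.59-fold, while *Tgm1* had none. Of 12 regulators of epidermal differentiation, *Trp63*, the master regulator of stratified epithelia, had 7 peaks in or within 5 kb of its 208326 bp, the best at 32.1-fold. *Grhl3* had 12.4-fold 4216 bp outside the gene and *Satb1* 7.18-fold inside it, while *Klf4*, *Ovol1* and *Cebpa* had none. Of 4 suprabasal keratin genes only *Krt10* had a peak, at 72.6-fold with 363 fragments inside the annotated gene, and *Krt1*, its partner in the filament, had its nearest summit 72416 bp away. These genes differ in length, which the count does not take into account.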

How the data were processed

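Samples were grouped by antibody label. The submitters' processing notes name BWA, MACS2 and mm10. Peaks were called once by the authors, per the file headers, with MACS (2.1.0.20151222), at a q-value threshold of 0.01 and with at most 1 fragment kept per position. Earlier filters are not stated. The deposited signal is the pileup of fragments at the summit, and the deposited p-value and q-value are −log10 values, per the file headers. The deposited fold was read as a ratio with a pseudocount of 1. Local background was recovered from pileup and fold. The p-values recomputed from it matched within 1% for 100% of finite values. Background equals the floor of 4.01 fragments at 78.0% of peaks.

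Genes, strands and promoters came from RefSeq tables for GRCm38.p6, the assembly of mm10. Distances run from the summit to the nearer gene end, and windows were merged before densities were taken. Promoters were aligned with Biopython 1.88, and intervals used SciPy 1.17.1. Counting was tested on simulated positions. With 1 library per group no test was made. Members and lists were chosen with earlier results of these data known. Named genes were every member with a peak (full values for the 10 strongest), the 5 nearest and 5 farthest members without one, and every listed gene with one. Others were picked after their values were seen. Alternatives were other distances, thresholds, member subsets, backgrounds and comparison areas.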

Additional observations from a re-analysis of the deposited data

How the results depend on the processing

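Of 70 recomputed values, 45 stayed within the counting interval of the reported value, or within 1.5 times for the number of peaks. Some of these intervals are wide, so staying within one is weak evidence of stability. That of the median fold ran from 5.30 to 27.5, and 12 of its 13 recomputed values fell within it. They include 8.68-fold within 10 kb, against 19.5-fold as reported. Changing the distance left the density of the rest of the region within its counting interval, at 46.4 to 50.1 per Mb, but moved the counts at the members. The share of members with a peak was 0% in the gene body alone, 2.63% within 1 kb, 10.5% within 2 kb, 57.9% within 10 kb and 71.1% within 20 kb, against 34.2% within 5 kb. The number of distinct peaks was 0, 1, 4, 24 and 26 at those distances, against 13, and the density at the members was 0 per Mb in the gene body and 6.28 per Mb within 1 kb, against 29.8. With only the strongest 10% of all peaks, 13.2% of members had a peak, from 4 peaks at 9.16 per Mb with a median of 29.1-fold, and the rest of the region held 7.68 per Mb. Without peaks whose background was above the floor, 18.4% of members had a peak, from 7 peaks, and the rest held 26.2 per Mb. The *Sprr* genes alone had 7 distinct peaks and the *Lce* genes alone 6, by construction fewer. The density of the rest, 48.6 per Mb, was 31.3 without the span of the *Tdpoz* genes, 32.1 without the part from *Tdpoz2* to 94 Mb and 22.0 over all of chromosome 3 outside the windows. The limit of 7 kb and the part from *Tdpoz2* on were chosen after seeing the data. Settings that use fewer peaks or members can only lower the number of peaks, and no cause of these changes was tested. No median fold exists for the gene body, which held no peak. No paired analysis was possible because each group has 1 library. Low pileups such as the 15 fragments at *Lce1m* limit how firmly the weak peaks can be placed.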
